A study of Canis lupus familiaris with 8 samples.

Results

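The genes described here are 8 genes of the nuclear lamina and the inner nuclear membrane: the lamins LMNB1, LMNB2 and LMNA, the lamin B receptor LBR, the LEM-domain proteins EMD and TMPO, and the SUN-domain proteins SUN1 and SUN2. They were taken by gene symbol from count tables of 35048 rows, and each symbol stood in 1 row. All 8 passed the filter on low counts, which left 20632 genes tested. The set was chosen by gene family, with the measured differences between obese and normal dogs in these same libraries already in view, and for a repeated symbol the rule kept the row with the highest mean. The values of that comparison are therefore a description of the 8 genes, and their p-values, adjusted over all genes tested, give no independent support for the choice.

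RNA came from peripheral blood mononuclear cells (PBMCs), a blood fraction made up mostly of lymphocytes and monocytes, from 8 dogs. Of 5 obese dogs, dog 1 was a Dachshund, dog 2 a Chihuahua, dogs 3 and 4 Labrador retrievers and dog 5 a Welsh Corgi. All 3 normal dogs were Beagles. No treatment is named in the labels, and they give neither the age of the dogs nor the measure by which they were called obese. Every normal dog and no obese dog was a Beagle, so body condition and breed cannot be told apart. Each library was a separate dog, and the study asked which genes differ between the groups.

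The nuclear lamina is a meshwork of lamin filaments under the inner nuclear membrane, which holds the shape of the nucleus and anchors chromatin. B-type lamins stay attached to the membrane through a permanent lipid anchor, whereas lamin A loses it on maturation. The A-type lamins, which LMNA encodes, stiffen the nucleus. LBR, emerin (EMD) and the membrane-bound products of TMPO tie chromatin or lamins to the membrane, and SUN proteins join nesprins to link the nucleus with the cytoskeleton. Blood leukocytes are known for soft nuclei with little lamin A, and granulocytes for abundant LBR, on which the lobes of their nuclei depend.

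Libraries held 10264202 to 14910982 counts, and the 8 genes together took 0.0405 to 0.0844% of a library. Values are CPM, counts scaled to a common library size with TMM factors. Markers of the labelled cells were present in every library, with at least 49.2 CPM of the T cell gene CD3E and 7.19 CPM of the monocyte gene CD14. Obese dog 3 stood apart from the other obese dogs. The erythroid markers summed to 1162 CPM in it and to at most 29.9 CPM in any other dog. Its summed neutrophil markers, at 2893 CPM, compared with 177 to 521 CPM in the other obese dogs. Of its sum, 1927 CPM was S100A12, which monocytes also express. In whole-population RNA of this kind, fewer cells of a type and less RNA per cell cannot be told apart.

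LMNB1, which encodes lamin B1, was the member that differed most between the groups. Its level in obese dogs was 3.17-fold lower than in normal dogs, while LMNB2 and LMNA, the other lamin genes, did not pass the test. The obese dogs had 139, 124, 95.7, 87.4 and 104.6 CPM in order of their numbers, and the normal dogs had 251, 448 and 350 CPM. Every obese dog was below every normal dog, and the highest obese value lay well under the lowest normal value. The means were 110 ± 21.2 (SD, n = 5) in obese and 350 ± 98.5 CPM (SD, n = 3) in normal dogs. Its log2 fold change, obese minus normal, was −1.66 (standard error 0.256, 95% interval −2.23 to −1.10, adjusted p = 0.0399, edgeR's quasi-likelihood test). LMNB1 ranked 30 by p among all genes tested. It was the 1 member of 8 past the threshold of 0.05, in a comparison where 0.233% of all genes tested passed and 0.184% passed as lower (0.0485% as higher). Because the set was proposed with this comparison known, nothing is read from that count.

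The call on LMNB1 rested on most of the dogs being present, but its direction did not change. Leaving out obese dog 1, 2, 4 or 5 or normal dog 2 or 3 raised the adjusted p above the threshold, to between 0.0692 and 0.233 (edgeR). In those fits few genes passed, 0.0094 to 0.0925% of all genes tested, and LMNB1 ranked 22 to 64 by p. Leaving out obese dog 3 gave 0.00632 (edgeR), in a fit that called 8.28% of all genes and where LMNB1 ranked 231 by p. Leaving out normal dog 1 gave 0.0477 (edgeR). Across these 8 fits the log2 fold change stayed between −1.84 and −1.48. Groups of LMNB1 values did not overlap under any of 4 scalings, including plain library totals, where the obese dogs had 71.3 to 131 and the normal dogs 272 to 389 CPM. An uncharacterised gene overlaps LMNB1 in the reference annotation, with 46 counts over all dogs against 20412 for LMNB1. A pseudogene that also overlaps it there was not analysed here.

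**Figure D1:**
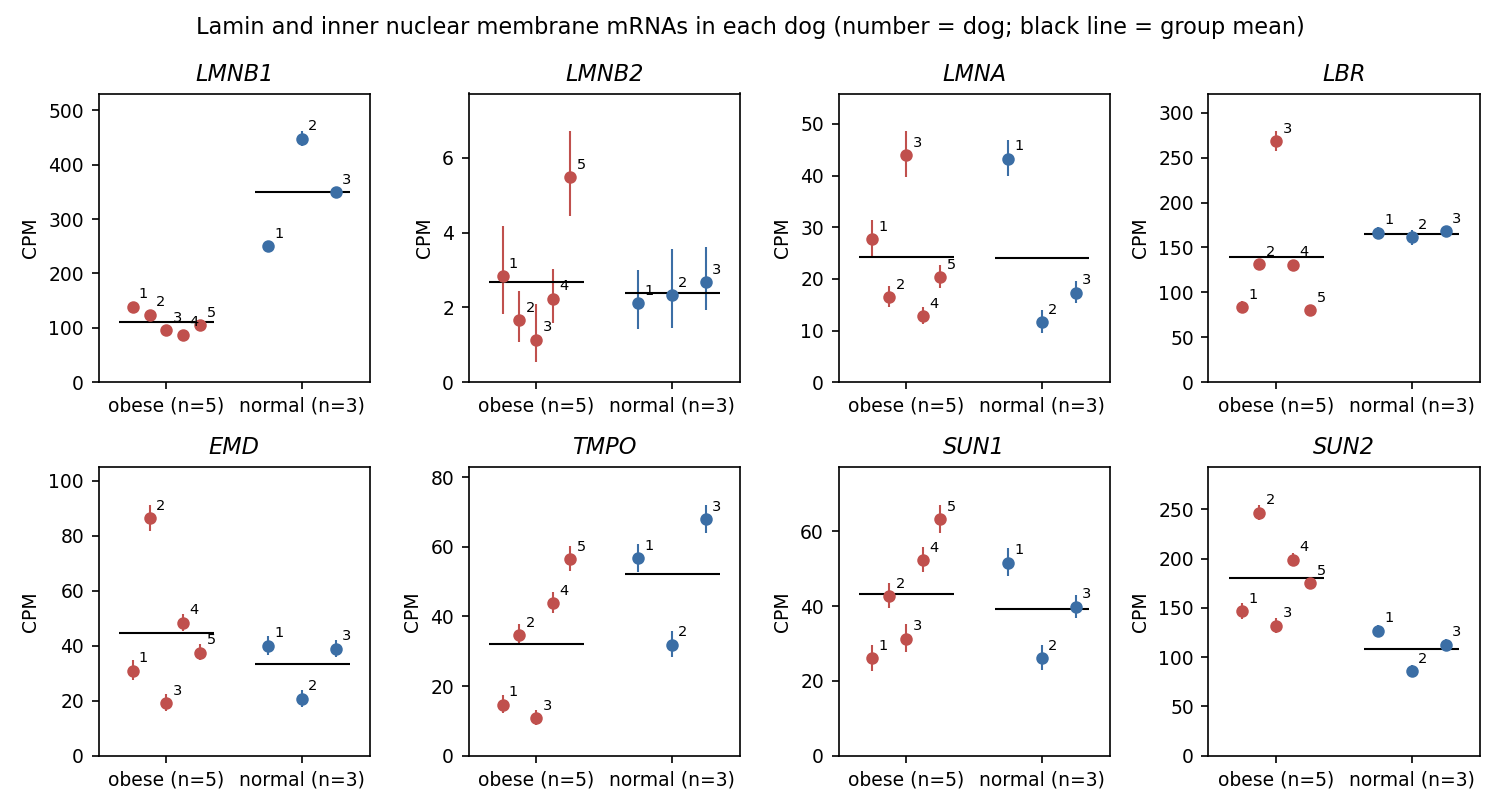
CPM of each of the 8 genes (vertical axes, linear from 0) in the obese (red) and normal (blue) dogs. Each point is 1 dog with its number, bars are 95% Poisson intervals for counting error, and black lines are group means. LMNB1 is lower in all 5 obese dogs, at 87.4 to 139 CPM, than in normal dogs, at 251 to 448 CPM, and LBR is highest in obese dog 3.

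LMNB2, which encodes lamin B2, was barely detected. It had 25, 25, 10, 40 and 94 counts in obese dogs and 30, 21 and 42 in normal dogs. These are 1.13 to 5.48 CPM and 2.11 to 2.68 CPM. Obese dog 5 was the highest and obese dog 3 the lowest of all dogs, and the normal dogs lay between them. The log2 fold change was 0.18 with a 95% interval of −1.07 to 1.42 (adjusted p = 0.91, edgeR), so a difference of more than 2-fold in either direction was within the error. In the normal dogs the spread of LMNB2 (12.1% of the mean) was less than the 18.0% that counting error alone gives at this depth. In the obese dogs it was 63.6%, against 16.1% from counting.

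LMNA, which encodes lamins A and C, was low and variable in both groups. The tables hold 1 count per gene, so lamin A and lamin C transcripts were not separated. The obese dogs had 27.7, 16.5, 44.0, 12.8 and 20.4 CPM and the normal dogs 43.3, 11.6 and 17.3 CPM. The highest dog of each group stood near the same level, and the groups overlapped over almost their whole range. The means were 24.3 ± 12.3 CPM (SD, n = 5) and 24.1 ± 16.9 CPM (SD, n = 3), with a log2 fold change of 0.01 with a 95% interval of −1.10 to 1.11. Its sign depended on the fit, being positive in 10 of 17 alternatives and negative in 7.

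Because LMNB1 made up most of the lamin counts, the fall of LMNB1 was also the fall of summed lamin mRNA. The 3 lamin genes together had 102 to 170 CPM in obese and 296 to 462 CPM in normal dogs. LMNB1 took 82.0, 87.3, 68.0, 85.3 and 80.2% of lamin counts in obese dogs 1 to 5 and 84.7, 97.0 and 94.6% in normal dogs 1 to 3. The share of normal dog 1 lay within the obese range, so the groups overlapped in make-up even though they did not in LMNB1 level. LMNA took the rest but for 0.503 to 4.20%, with its largest share in obese dog 3 (31.2%, exact binomial 95% interval 28.7 to 33.9%, counting error only). For each LMNA count there were 2.18 to 7.54 LMNB1 counts in obese dogs and 5.79, 38.5 and 20.2 in normal dogs. The log2 ratio of LMNA to LMNB1 was −2.30 ± 0.706 (SD, n = 5) in obese and −4.05 ± 1.39 (SD, n = 3) in normal dogs. These are ratios within a library and do not depend on how libraries were scaled.

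**Figure D2:**
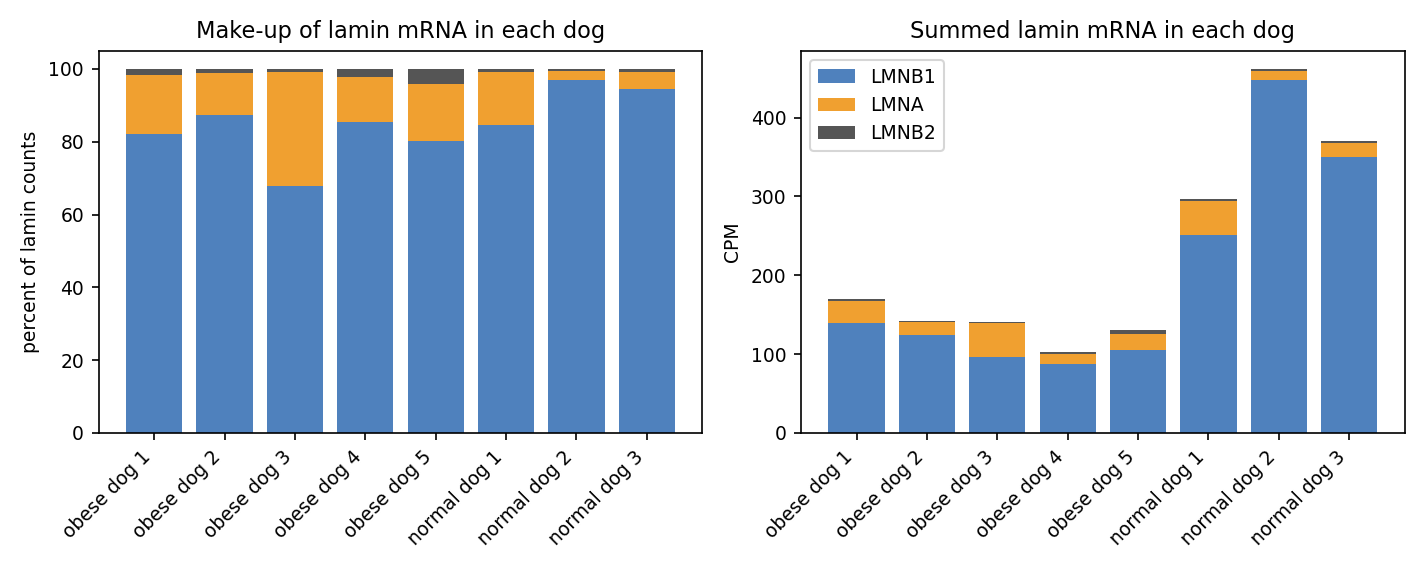
Left, the percentage of each dog's lamin counts that came from LMNB1 (blue), LMNA (orange) and LMNB2 (grey). Right, the same genes as stacked CPM, which reach 102 to 170 in obese dogs and 296 to 462 in normal dogs, while the LMNB1 share of normal dog 1 (84.7%) falls within the obese range.

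LBR, which binds B-type lamins and heterochromatin and is also a sterol reductase, showed nearly equal values in normal dogs and widely spread values in obese dogs. The normal dogs had 166, 161 and 168 CPM and the obese dogs 83.7, 131, 268, 131 and 80.5 CPM. The spread in normal dogs, 2.04% of the mean, was about that of counting error (2.16%), and in obese dogs it was 55.0%. Obese dog 3 was the highest of all dogs, and the other obese dogs were all below the normal dogs. The log2 fold change was −0.25 (standard error 0.376, adjusted p = 0.787, edgeR), and without obese dog 3 it was −0.66 (adjusted p = 0.114, edgeR; 0.112 to 0.931 over all alternatives). The neutrophil marker sum of obese dog 3 was 2893 CPM, near that of normal dog 2 at 2772 CPM, where LBR was 161 CPM. S100A12 made up 1927 and 1488 CPM of these sums. On log2 CPM the r of LBR was 0.74 with the neutrophil, 0.61 with the erythroid and −0.74 with the T cell sum over 8 dogs. Over the 5 obese dogs, where obese dog 3 was highest for LBR, these were 0.75, 0.91 and −0.94. The part of neutrophils or of other cells in the LBR values was not tested.

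Of the LEM-domain genes, EMD encodes emerin, and TMPO encodes the lamina-associated polypeptides 2, some of which span the membrane while the alpha form lies in the nucleoplasm. TMPO isoforms were not separated in the tables. EMD had 31.0, 86.5, 19.2, 48.4 and 37.5 CPM in obese and 40.0, 20.7 and 38.9 CPM in normal dogs. Obese dog 2 was the highest and obese dog 3 the lowest, with all normal dogs between them. TMPO had 14.6, 34.7, 10.8, 43.9 and 56.5 CPM in obese and 56.7, 31.9 and 67.9 CPM in normal dogs. Obese dogs 1 and 3 were below every normal dog, whereas the other obese dogs lay within the normal range. The log2 fold changes were 0.42 for EMD (95% interval −0.58 to 1.43) and −0.70 for TMPO (95% interval −1.82 to 0.43), and neither passed (adjusted p = 0.686 and 0.536, edgeR). Leaving out 1 dog moved EMD to between 0.03 (without obese dog 2) and 0.59, and TMPO to between −1.01 (without obese dog 5) and −0.49.

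SUN1 and SUN2, the inner membrane part of the bridge to the cytoskeleton, differed in level and in how they varied. SUN2 had 146, 247, 132, 199 and 175 CPM in obese and 127, 86.0 and 113 CPM in normal dogs. Every obese dog was above every normal dog, though obese dog 3 was close to normal dog 1. The log2 fold change of SUN2 was 0.73 (standard error 0.27, 95% interval 0.13 to 1.33) and it did not pass (adjusted p = 0.247, edgeR). Among the members the groups were without overlap for LMNB1 (lower) and SUN2 (higher), as they were for 10.9% of all genes tested (5.16% lower, 5.75% higher), and nothing is read from this count. When CPM was computed from library totals the SUN2 groups did overlap, with 98.4 to 261 in obese and 74.7 to 138 in normal dogs. A limma-voom fit that weights libraries by quality called SUN2 higher (log2 fold change 0.78, adjusted p = 0.0197, over alternatives 0.0197 to 0.715). That fit called 19.1% of all genes (9.15% higher, 9.96% lower), with the lowest weight, 0.279, on obese dog 3. Some sums of cell type markers moved with SUN2. Its r on log2 CPM was −0.91 with the summed monocyte, −0.88 with the neutrophil and 0.82 with the T cell markers over 8 dogs. Over the 5 obese dogs it was −0.87, −0.81 and 0.57. With the plasma cell sum it was −0.34 over 8 dogs and 0.94 over the obese dogs, and with the erythroid sum 0.05 and −0.53. Those over 8 dogs carry the difference between the groups. By group mean VCAN was the largest part of the monocyte sum, and S100A12 of the neutrophil sum. The part of cell make-up in the SUN2 values was not tested.

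SUN1 had 26.0, 42.6, 31.3, 52.3 and 63.2 CPM in obese and 51.6, 26.1 and 39.8 CPM in normal dogs. The ranges were nearly the same, and the log2 fold change was 0.14 (95% interval −0.63 to 0.90). SUN2 had 2.77 to 5.79 counts for each SUN1 count in obese and 2.46 to 3.29 in normal dogs, with overlap. In the reference annotation SUN1 overlaps an uncharacterised long non-coding RNA with 3132 counts against 4766 for SUN1, and their CPM moved together (r = 0.97 over 8 dogs, descriptive). SUN2 overlaps GTPBP1, with 12937 counts against 17111, and another uncharacterised long non-coding RNA with 2726 counts. The strand setting of the counting is not stated in the labels, so reads of such overlapping genes cannot be told apart.

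Ranked by level, the 8 genes stood in a different order in the 2 groups. A 3′ tag library gives about 1 read per transcript whatever its length, so CPM of different genes can be set side by side as far as each gene's 3′ end is annotated. In the normal dogs LMNB1 was first (350 CPM), then LBR (165 CPM) and SUN2 (109 CPM), and the ranges of these genes did not overlap. In the obese dogs SUN2 was first (180 CPM), then LBR (139 CPM) and LMNB1 (110 CPM), with overlapping ranges. Within each library there were 0.439 to 0.950 LMNB1 counts per SUN2 count in obese dogs and 1.97 to 5.21 in normal dogs. TMPO, SUN1 and EMD followed in both groups, at group means of 32.1 to 52.2 CPM and with overlapping ranges. LMNA came next, with a range that overlapped theirs, and LMNB2 was below every other member in every dog.

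The 2 Labrador retrievers, which share breed and group, show how far members other than LMNB1 varied. Obese dogs 3 and 4 had 268 and 131 CPM of LBR, 44.0 and 12.8 CPM of LMNA, and 10.8 and 43.9 CPM of TMPO. Their LMNB1 values were 95.7 CPM (95% Poisson interval 89.4 to 102) and 87.4 CPM (83.2 to 91.9). These intervals overlap, which does not show that the values were equal within counting error. Across all 8 dogs the members did not vary as 1 block. Of 28 pairs, 14 had a positive correlation of log2 CPM, and the median r was 0.00 over 8 dogs. EMD and SUN2 had the highest r, 0.79, and the lowest, −0.80, was that of LBR with LMNB2, which rests on few counts. These are descriptions over libraries that also share differences in depth and cell make-up.

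The other genes of the nuclear envelope listed here had log2 fold changes of −0.94 to 1.11, all smaller in size than that of LMNB1. Of 54 tested genes in lists of LEM-domain and other inner membrane proteins, nesprins and torsins, lamin processing enzymes, chromatin partners and nucleoporins, none passed in either direction by edgeR. Of these, 6 had an unadjusted p under 0.05, as did 15.7% of all genes tested. DESeq2 called 1 of the 54 higher, where it called 2.9% of all genes higher. Limma-voom called 3 higher and 2 lower, against the 9.15 and 9.96% it called among all genes. Their median log2 fold change was 0.11, close to the 0.09 of all genes tested, and 20 were below 0, as were 44.7% of all genes tested. The 8 members had a median of 0.07, with 3 below 0.

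Among 10 LEM-domain and other inner membrane genes, 9 had a positive log2 fold change and the median was 0.43. LEMD2, an inner membrane partner of lamins that helps reseal the envelope after mitosis, had 17.1 ± 3.53 CPM in obese and 10.6 ± 1.12 CPM in normal dogs. BANF1, the DNA-binding protein that LEM domains grip, had 83.8 ± 49.4 against 47.2 ± 2.86 CPM, and TMEM201 had 5.57 ± 3.02 against 3.09 ± 0.698 CPM. None of these passed by edgeR, and limma-voom called LEMD2 higher. Among 7 nesprin and torsin genes the median was 0.15. TOR1AIP1, a lamin-binding inner membrane protein that activates torsin ATPases, went the way of LMNB1, with 96.5 to 175 CPM in obese and 178 to 253 CPM in normal dogs, but did not pass (log2 fold change −0.66, adjusted p = 0.248, edgeR). Limma-voom called it lower, as did edgeR without obese dog 3, a fit that called 8.28% of all genes. SYNE3 (nesprin-3) and TOR1B had log2 fold changes of 0.29 and 0.44.

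The 5 genes for enzymes that attach the lipid anchor of lamins, or trim or methylate the lamin end that carries it, had a median of 0.19. FNTB and FNTA, the subunits of farnesyltransferase, had log2 fold changes of 0.40 and 0.19, and the protease RCE1 had a log2 fold change of 0.55. Chromatin partners had a median of 0.10 over 7 genes. CBX3 and CBX5 encode heterochromatin proteins, with log2 fold changes of 1.11 and −0.36, and HDAC3, a histone deacetylase, had 0.50. Nucleoporins, which build the pores, were split evenly, with 12 of 25 above and 13 below 0. They summed to 1289 to 1527 CPM in obese and 1504 to 1621 CPM in normal dogs, and the sum had an r of 0.71 with LMNB1 over 8 dogs and of −0.24 over the 5 obese dogs (log2 CPM, descriptive). NUP214, a cytoplasmic filament protein, had 57.2 ± 3.59 CPM in obese and 31.6 ± 5.47 CPM in normal dogs (adjusted p = 0.13, edgeR), and DESeq2, limma-voom and edgeR without obese dog 3 called it higher. NUP50 of the nuclear basket had 51.3 ± 5.59 against 85.8 ± 21.4 CPM. NUP98, by group mean the largest part of the nucleoporin sum, had 202 ± 64.3 against 387 ± 153 CPM. Neither passed by edgeR, and limma-voom and edgeR without obese dog 3 called NUP98 lower.

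**Figure D3:**
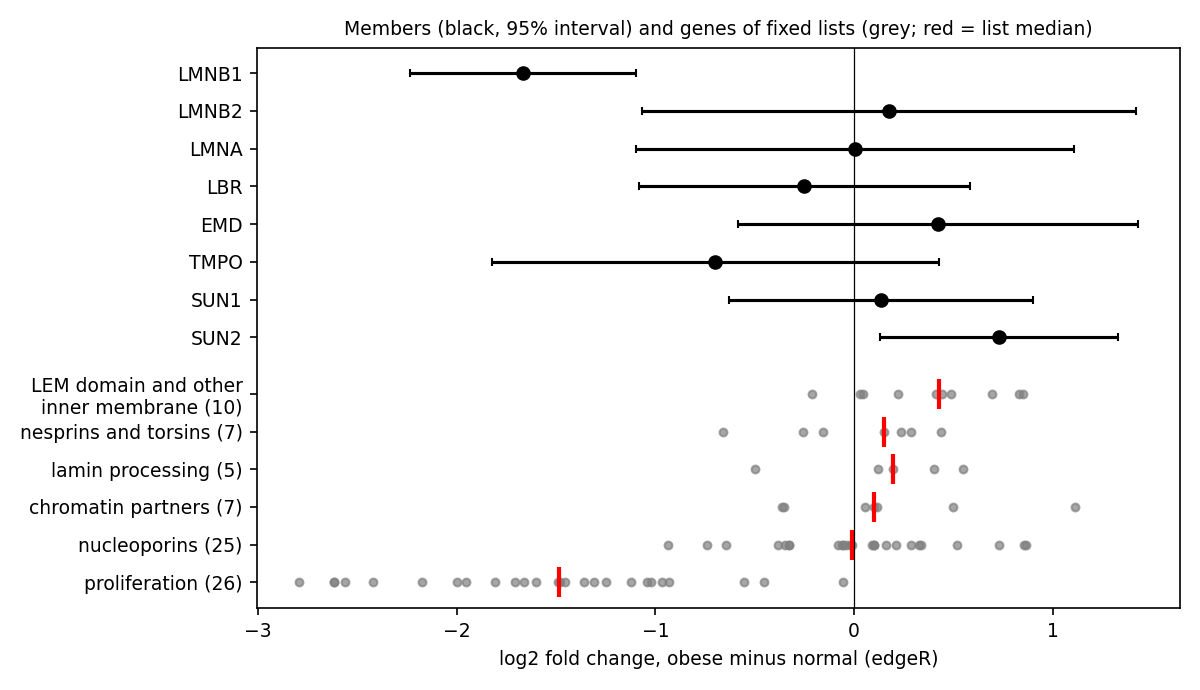
Log2 fold change, obese minus normal, from edgeR (horizontal axis) for the 8 members with 95% intervals (black) and for each tested gene of 6 lists (grey, with the list median in red). The interval of LMNB1 lies between −2.23 and −1.10, the 5 envelope and pore lists have medians from −0.01 to 0.43, and the proliferation list has a median of −1.48.

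Proliferation genes, unlike the envelope and pore lists, were below 0 in 26 of 26 cases (44.7% of all genes tested), with a median of −1.48. CENPF, a kinetochore protein, fell past the threshold (log2 fold change −2.62, adjusted p = 0.0194, edgeR). No other did, and 0.184% of all genes passed as lower. In 19 the unadjusted p was under 0.05 (15.7% of all genes, edgeR), and in 16 the groups did not overlap, with obese lower (5.16% of all genes). DESeq2 called 15 lower and limma-voom 22, in fits that called 4.98 and 19.1% of all genes in either direction. The list was chosen with earlier results of these data known, so these counts are a description. The list summed to 614, 485, 572, 534 and 526 CPM in obese and 1266, 1227 and 1287 CPM in normal dogs. The sums of the groups did not overlap. By group mean their largest parts were PCNA, at 167 CPM in obese and 428 CPM in normal dogs, and NUSAP1, at 154 and 160 CPM. On log2 CPM the sum had an r of 0.93 with LMNB1 over 8 dogs and of 0.20 over the 5 obese dogs. The first of these carries the difference between the groups, and the part of proliferating cells in the LMNB1 difference was not tested. MKI67 and TOP2A, markers of cycling cells, had log2 fold changes of −1.45 and −1.66 (adjusted p = 0.400 and 0.0982, edgeR). The MKI67 groups overlapped, at 13.3 to 144 CPM in obese and 89.7 to 147 CPM in normal dogs. FOXM1, the factor in the study's title, had −1.31 (adjusted p = 0.568, edgeR). Its level was low, with means of 0.871 CPM in obese and 2.09 CPM in normal dogs. TTK, MCM5 and CCNB2 had adjusted p-values of 0.0591, 0.0625 and 0.0747 (edgeR).

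Sums of cell type markers also moved with LMNB1 over the 8 dogs, but most did so differently within the obese dogs. The neutrophil markers summed to 859, 2772 and 2187 CPM in normal dogs 1, 2 and 3, which is the order of their LMNB1 values. In obese dogs 1, 2, 4 and 5 the sums were 521, 179, 266 and 177 CPM. Obese dog 3, at 2893 CPM, had the highest sum of all dogs, and its LMNB1 was at 95.7 CPM. It was the highest dog for 5 of the 10 markers, with 423 CPM of CSF3R, 5.33 CPM of CXCR2, 15.8 CPM of MMP9 and 329 CPM of PADI4. The fifth was S100A12, which monocytes also express and which made up 1927 CPM of its sum. It was not the highest for MMP8 (1.70 CPM), LTF (121 CPM), CAMP (12.8 CPM), MPO (0.907 CPM) or IL1R2. Its IL1R2, at 56.4 CPM, was below that of every normal dog. CXCR2 was at 0 in 3 dogs, and MPO was at most at 1.36 CPM in any dog. The monocyte markers summed to 782 to 1729 CPM in obese and 1580 to 2857 CPM in normal dogs, the T cell markers to 461 to 1244 and 288 to 372 CPM, and the plasma cell markers to 132 to 249 and 302 to 1078 CPM. No marker in these 4 lists was at 0 in all dogs. Log2 fold changes were positive for 9 of 9 T cell markers (median 1.24) and negative for 6 of 7 plasma cell markers (median −2.18). The plasma cell marker TNFRSF17 passed as lower (log2 fold change −4.39, adjusted p = 0.0228, edgeR), as did 0.184% of all genes. B cell markers were positive in 7 of 8 cases (median 0.80) and summed to 58.2 to 271 CPM in obese and 54.2 to 109 CPM in normal dogs. Of all genes tested, 44.7% were negative. The medians of the monocyte and neutrophil markers were 0.13 and −0.17. Of the 8 monocyte markers 5 were positive and 3 negative, and of the 10 neutrophil markers 5 and 5. VCAN, by group mean the largest part of the monocyte sum, had 377 ± 270 CPM in obese and 1470 ± 653 CPM in normal dogs. The platelet markers summed to 67.6 to 1241 CPM in obese and 8.19 to 32.0 CPM in normal dogs, and the sums of cytotoxic markers overlapped between the groups. Over 8 dogs the r of LMNB1 was 0.73 with the monocyte, 0.61 with the neutrophil and −0.78 with the T cell sum (log2 CPM, descriptive). Over the 5 obese dogs these had the opposite sign, at −0.41, −0.20 and 0.43. With the plasma cell sum r was 0.67 over 8 dogs and 0.04 over the obese dogs, and with the platelet sum −0.64 and 0.99. With the B cell sum it was −0.53 and −0.31. The values over 8 dogs carry the difference between the groups. The part of cell make-up in the LMNB1 difference was not tested.

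**Figure D4:**
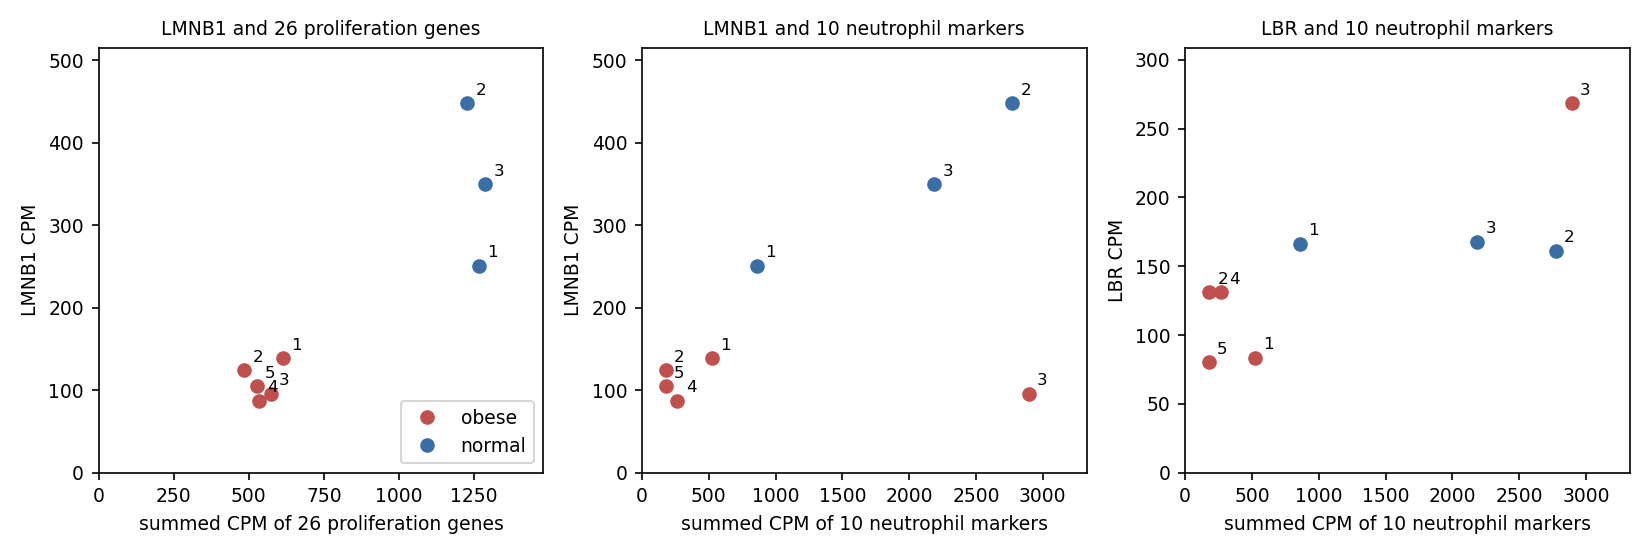
CPM of LMNB1 against the summed CPM of 26 proliferation genes (left) and of 10 neutrophil markers (middle), and CPM of LBR against the neutrophil markers (right). Points are dogs with their numbers, obese in red and normal in blue, and all axes are linear from 0. Obese dog 3 combines 2893 CPM of neutrophil markers, of which 1927 CPM is S100A12, with 95.7 CPM of LMNB1 and 268 CPM of LBR.

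Among 10115 genes with a name and at least 5 CPM, the 5 whose log2 CPM followed LMNB1 most closely over the 8 dogs were ND5 (r = 0.98), ND3 (r = 0.98), YOD1 (r = 0.98), CCNE2 (r = 0.97) and ND6 (r = 0.97). ND3, ND5 and ND6 are subunits of respiratory complex I encoded in the mitochondrial genome, YOD1 is a deubiquitinase, and CCNE2 is cyclin E2. ND5 had 199 ± 56.2 CPM in obese and 667 ± 177 CPM in normal dogs, and YOD1 had 6.55 ± 3.67 against 44.6 ± 30.3 CPM. In all 5 genes the groups did not overlap, so these values of r carry the difference between groups. The genes most like LMNA were RPS6KC1 (r = 0.95), DBI (r = 0.94), TMEM132B (r = 0.94), S100A10 (r = 0.91) and VIRMA (r = 0.91). For these the groups overlapped, and S100A10, a calcium-binding protein family member and annexin partner, had 258 ± 92.1 CPM in obese and 273 ± 132 CPM in normal dogs.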

How the data were processed

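Each library was made from 500 ng of Trizol-extracted RNA with the Lexogen QuantSeq kit, per the labels' protocols, and reads tags near the poly(A) tail. The authors deposited 1 table of whole-number counts per gene symbol for each dog, without normalization. The submitters' processing notes name Bowtie2 and bedtools. Their versions and roles, like the genome build, annotation and strand, remain not given in the sources used here. Where a symbol was repeated, its row of highest mean stood for the gene. A RefSeq table of UU_Cfam_GSD_1.0, which held all 8 genes, gave the overlapping genes, and no coordinates are printed.

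The deposited counts were fitted in edgeR 4.0.16 (R 4.3.3) with filterByExpr by group, TMM scaling, robust glmQLFit and glmQLFTest, and Benjamini-Hochberg adjustment over 20632 genes at a threshold of 0.05. Standard errors were taken as |log2 fold change| over the root of F, and 95% intervals of log2 fold changes from these with the test's degrees of freedom. Intervals of single values (Poisson, or binomial for shares, both exact) cover counting error alone. Correlations use log2(CPM + 0.5). The members and lists were chosen with earlier results of these data known. The rule for named genes took the members, per list those past the threshold and the 3 next by p, the first proliferation genes and FOXM1, the first markers of a list, and the 5 genes most like LMNB1 and LMNA. VCAN, S100A12, MMP8, MMP9, LTF, CAMP, IL1R2, PADI4, MPO, PCNA, NUSAP1 and GTPBP1 were named after their values were seen. Between any 2 libraries the chi-square per degree of freedom was at least 35.9, so none was a repeat of another. The edgeR step was tested on simulated data. Alternatives were other scalings and filters, DESeq2 1.42.0, limma 3.58.1 voom, summed repeated symbols, abundant genes left out, a block on dog number and leaving out each dog.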

Additional observations from a re-analysis of the deposited data

Results flagged for a closer look

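The LBR value of obese dog 3 stood apart from those of the other obese dogs. It was 268 CPM, where the others had 80.5 to 131 CPM, and its gap to the nearest was 0.729 of the whole range of the group, above the critical ratio of 0.71 for 5 samples. Of 10 sets of obese values examined in this way this was the 1 set past the critical ratio, and chance takes a set past it in about 5% of cases.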

How the results depend on the processing

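Over 17 alternatives LMNB1 was lower in the obese dogs in all, and past the threshold in 10. The log2 fold change was −1.53 with the replicate block on dog number (adjusted p = 0.414, over alternatives 1.03e-05 to 0.414) and −1.84 to −1.48 leaving out 1 dog. The block compares dogs that share a number, so obese dogs without a normal dog of their number add nothing to its estimate. That estimate rests on the 3 normal dogs and the obese dogs of the same numbers. Few dogs are left to measure spread, so failing to pass with the block cannot show that a difference is absent. SUN2 was higher in all 17 and passed in limma-voom alone (0.78). The other 6 members passed in none. LBR, TMPO and EMD kept their sign, with EMD at 0.17 and TMPO at −1.52 with the block, and LMNA, LMNB2 and SUN1 were negative in 7, 2 and 3. Genes called higher and lower numbered 10 and 38, and 599 and 428 by DESeq2, 1887 and 2055 by limma-voom, and 0 and 0 with the block, where 1634 had an unadjusted p under 0.05. Leaving out 1 dog gave 0 to 661 and 2 to 1023, the highest without obese dog 3. The 54 envelope and pore genes and 26 proliferation genes were also counted together. Those called higher and lower were 0 and 1, 1 and 15 by DESeq2, and 3 and 24 by limma-voom. They were 0 and 0 with the block, and 0 to 1 and 0 to 16 leaving out 1 dog. Proliferation genes were all 15 of the lower calls by DESeq2, 22 of the 24 by limma-voom and 14 of the 16 without obese dog 3. Envelope and pore genes called lower were 0, 2 and 2 in these fits. The block compared fewer dogs than the other fits, and the cause of the changes between fits was not tested. The labels state no pairing of dogs by number. Same-numbered dogs had correlations of −0.0074, −0.277 and 0.00516 in their deviations from the group means, and other pairs −0.371 to 0.312. Centring on the mean of 3 normal dogs ties these values together. They cannot decide whether same-numbered dogs were handled together. The log2 ratio of LMNA to LMNB1, obese minus normal, was 1.75, and 1.13 to 2.50 leaving out 1 dog. The LMNB1 share of lamin counts differed by −11.5 percentage points, and −15.2 to −8.38 leaving out 1 dog. Depth limits LMNB2, with 10 to 94 counts per dog.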
